A study of Homo sapiens with 8 samples.

Results

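The mRNAs of 7 very large interferon-induced enzymes were examined together: RNF213, HELZ2, ZNFX1, SAMD9, SAMD9L, DDX60 and DDX60L. They were taken by gene symbol from the Molm13 count table and by the same Ensembl identifier from the THP1 table. The rule itself uses no measured value, but the genes were proposed with earlier results of these data known, so the counts of genes that moved do not come from a blind choice. The 7 genes are 7 of the 57722 identifiers shared by both tables, and all 7 had enough counts to be tested in both lines. The data are poly(A) RNA-seq of Molm13 and THP1, human acute myeloid leukemia (AML) cell lines, in 8 libraries. In each line, 2 libraries came from cells with a control hairpin (shCtrl, labelled WT) and 2 from cells with a hairpin against PRMT9 (shPRMT9, labelled PRMT9 knockdown), and the cells of all 4 groups were treated with doxycycline to induce the hairpin. PRMT9 is an arginine methyltransferase, and each comparison asks how the 7 mRNAs differed once it was depleted. The labels give neither the length of the induction nor separate cultures, so p-values measure the spread between these libraries, which may be technical. The labels do not say whether numbers 1 and 2 of shPRMT9 are replicates or different hairpins, and the study uses the same names, shPRMT9-1 and shPRMT9-2, for its hairpins in other experiments. They were treated as replicates here, so the spread between them may also hold a difference between hairpins.

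These genes encode enzymes that burn ATP or other nucleotides in antiviral defense. Type I interferon binds the IFNAR1 and IFNAR2 receptor, which activates the kinases JAK1 and TYK2 and the transcription factor that holds STAT2 and IRF9, and that factor binds the interferon-stimulated response element (ISRE) in the promoters of its targets. RNF213 is a giant ubiquitin ligase built around a ring of AAA+ ATPase modules. HELZ2 and ZNFX1 carry UPF1-like helicase domains, and ZNFX1 is known as a sensor of double-stranded RNA at mitochondria. SAMD9 and SAMD9L are paralogous NTPases that restrict poxviruses and can shut down translation, and inherited activating mutations of them are known from bone marrow failure and myeloid neoplasms with loss of chromosome 7. DDX60 and DDX60L are paralogous SKI2-like helicases with antiviral activity.

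All 7 are protein-coding on GRCh38, and their starts and ends in the deposited table equal those of GENCODE release 29. Their longest annotated proteins run from 1584 residues (SAMD9L) to 5256 (RNF213), against a median of 428 over 19951 protein-coding genes, and RNF213 ranked number 23 of these by length. RNF213 lies at chr17:80260866-80398786 on the plus strand, with 68 coding exons. The other 6 are on minus strands. HELZ2 (chr20:63558086-63574239, 19 coding exons) and ZNFX1 (chr20:49237946-49278426, 13 coding exons) share a chromosome but are not adjacent. SAMD9 (chr7:93099513-93118023) and SAMD9L (chr7:93130055-93148369) lie 12031 bases apart, and each has its whole coding sequence in 1 exon. DDX60 (chr4:168216293-168318807) and DDX60L (chr4:168356735-168537786) lie 37927 bases apart, with 37 coding exons each. Reads could in principle be assigned to the wrong paralog, so stretches of 50 bases shared between annotated transcripts were counted. SAMD9 and SAMD9L shared none, and DDX60 and DDX60L shared 42 of 6791 and 12369.

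The promoters of both paralog pairs are shown here because a search for the ISRE core, GAAANNGAA, divided them. Each sequence spans 250 bases before to 50 after the RefSeq start (GRCh38.p14), 5′ to 3′ on the strand of the gene, with capitals at matches to the core on either strand.
SAMD9, chr7:93117930-93118229, minus strand: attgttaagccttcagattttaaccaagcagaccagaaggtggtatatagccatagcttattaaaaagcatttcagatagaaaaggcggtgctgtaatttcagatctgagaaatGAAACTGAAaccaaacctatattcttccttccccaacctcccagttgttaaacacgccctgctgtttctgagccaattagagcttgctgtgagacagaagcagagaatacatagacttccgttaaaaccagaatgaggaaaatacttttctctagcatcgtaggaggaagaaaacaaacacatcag
SAMD9L, chr7:93148336-93148635, minus strand: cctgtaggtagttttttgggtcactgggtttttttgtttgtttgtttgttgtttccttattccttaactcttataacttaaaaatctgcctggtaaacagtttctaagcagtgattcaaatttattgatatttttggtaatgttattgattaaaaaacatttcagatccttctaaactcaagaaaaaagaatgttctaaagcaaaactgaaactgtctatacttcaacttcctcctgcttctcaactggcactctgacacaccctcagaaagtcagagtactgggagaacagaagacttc
DDX60, chr4:168318703-168319002, minus strand: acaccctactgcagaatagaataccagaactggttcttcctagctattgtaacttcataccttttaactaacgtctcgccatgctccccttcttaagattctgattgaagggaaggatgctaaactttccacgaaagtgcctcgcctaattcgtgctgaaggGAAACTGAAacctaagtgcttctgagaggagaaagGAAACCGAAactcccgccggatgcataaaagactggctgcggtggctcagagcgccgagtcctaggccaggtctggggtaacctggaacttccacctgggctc
DDX60L, chr4:168480443-168480742, minus strand: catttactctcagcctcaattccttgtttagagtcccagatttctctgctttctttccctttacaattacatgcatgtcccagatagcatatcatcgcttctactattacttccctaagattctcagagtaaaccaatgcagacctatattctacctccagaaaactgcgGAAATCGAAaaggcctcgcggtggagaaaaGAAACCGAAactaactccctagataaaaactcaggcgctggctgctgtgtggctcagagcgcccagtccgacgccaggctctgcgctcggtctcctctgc

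The DDX60 and DDX60L windows each held 2 matches at nearly the same places, beginning 88 and 53 bases before the start in DDX60 and 80 and 50 before it in DDX60L. SAMD9 held 1, beginning 136 bases before the start, whereas the SAMD9L window held none. No match was present in the windows of RNF213 and HELZ2, and ZNFX1 had no entry among the promoters used. The core was therefore found in 3 of 6 promoters, against 2847 of 35116 promoters in the whole table (8.11%) and 30 of 47 promoters of other interferon-stimulated genes (63.8%). A match describes letters in this window only, and the RefSeq start of DDX60L lies inside the gene as the deposited table bounds it. Only exact matches to the core were counted, so a window without one may still hold a near match.

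Depth was 18720950 to 21241742 counts per library in Molm13 and 25127517 to 27356870 in THP1, so it separated by line. The most abundant gene accounted for at most 2.08% of the counts. PRMT9, the targeted gene, was at 332 and 289 counts in Molm13 shCtrl and at 41 and 56 upon KD (log2 fold change −2.68). In THP1, 317 and 352 counts became 60 and 68 (log2 fold change −2.29). Myeloid genes (LYZ, SPI1, CEBPA, CD33) were expressed in every library, but CD14 had only 4 to 8 counts in Molm13, and the B cell markers MS4A1, CD79A and CD79B had at most 33 counts and the T cell markers CD3D, CD3E and CD3G at most 14 in any library. PAX5, another B cell gene, was at 42.4 CPM in the Molm13 controls, where it was not called changed (log2 fold change −0.12). In THP1 it rose with the KD, from 64 and 86 counts to 298 and 276 (log2 fold change 2.03). The names of the libraries labelled THP1 also carry the letters OCI, and in them MEIS1, a target of MLL fusions, had 4 to 9 counts, against 1452 to 1811 in Molm13. The other MLL fusion targets listed were expressed in both lines. HOXA9 had 1366 to 1539 and HOXA10 714 to 1260 counts in the libraries labelled THP1, against 1215 to 1599 and 1139 to 1710 in Molm13. HOXB3 had 142 to 203 and HOXB4 141 to 172 counts in the libraries labelled THP1, against 0 to 5 in Molm13. HOXB6 had 16 to 41 counts in them and 0 in Molm13, and HOXB5 had 0 in both lines. By the library names, MEIS1, HOXB3 and HOXB4, the identity of the line labelled THP1 is in doubt. HOXA9 and HOXA10 do not add to that doubt. The label THP1 was kept, and every result given for THP1 is for the libraries labelled so. Myeloid markers moved with the KD: 3 of 7 tested rose in Molm13, and 4 of 8 rose and MPO fell in THP1 (−0.82). MPO was also lower in Molm13 (−0.56) but was not called changed there. Over all genes, 11.4% rose in Molm13, and 3.82% rose and 2.39% fell in THP1. CSF1R rose by 2.06 and 1.03 and ITGAM by 1.95 and 1.15 on the log2 scale in Molm13 and THP1, and the part of these markers, PAX5 included, in the results for the 7 genes was not tested. In bulk samples, fewer cells of a type and less RNA per cell cannot be told apart.

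Levels of the genes were first compared per exon length, as RPKM scaled by TMM factors (edgeR's normalization between libraries) within each line. In Molm13 shCtrl, ZNFX1 was highest at 9.44 ± 0.152 RPKM (SD, n = 2), followed by SAMD9 at 8.21 ± 0.216 and DDX60L at 7.24 ± 0.265. SAMD9L (4.91 ± 0.0901), DDX60 (4.83 ± 0.104) and RNF213 (4.75 ± 0.0202) followed, with overlapping library ranges for SAMD9L and DDX60 and for DDX60 and RNF213 but not for SAMD9L and RNF213, and HELZ2 was lowest at 1.87 ± 0.102. The THP1 controls had another order. DDX60L (16.5 ± 0.654) and SAMD9L (16.05 ± 1.02) overlapped at the top, SAMD9 (9.54 ± 0.675) and ZNFX1 (9.004 ± 0.378) overlapped next, and RNF213 (7.58 ± 0.102), DDX60 (5.17 ± 0.451) and HELZ2 (1.75 ± 0.0373) followed without overlap.

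Upon PRMT9 KD, the order changed in both lines. SAMD9L led in Molm13 at 21.7 ± 0.115 RPKM, ahead of SAMD9 (17.3 ± 0.152), DDX60L (11.2 ± 0.4996), DDX60 (10.02 ± 0.418), ZNFX1 (8.17 ± 0.0249), RNF213 (8.07 ± 0.0601) and HELZ2 (5.87 ± 0.0214), with no overlap between neighbors. ZNFX1 had thus moved from first place to the fifth. SAMD9L also led in THP1, at 62.5 ± 0.0333 RPKM, ahead of DDX60L (33.3 ± 0.695), SAMD9 (31.7 ± 0.149), RNF213 (29.02 ± 1.09), DDX60 (18.1 ± 0.891), ZNFX1 (16.6 ± 0.553) and HELZ2 (9.43 ± 0.345). HELZ2 was the lowest of the 7 in all 4 groups. Lengths came from the Molm13 table and were applied to both lines. They are total exon bases per gene, not the length of the expressed transcript, and the orders between genes rest on them.

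**Figure D1:**
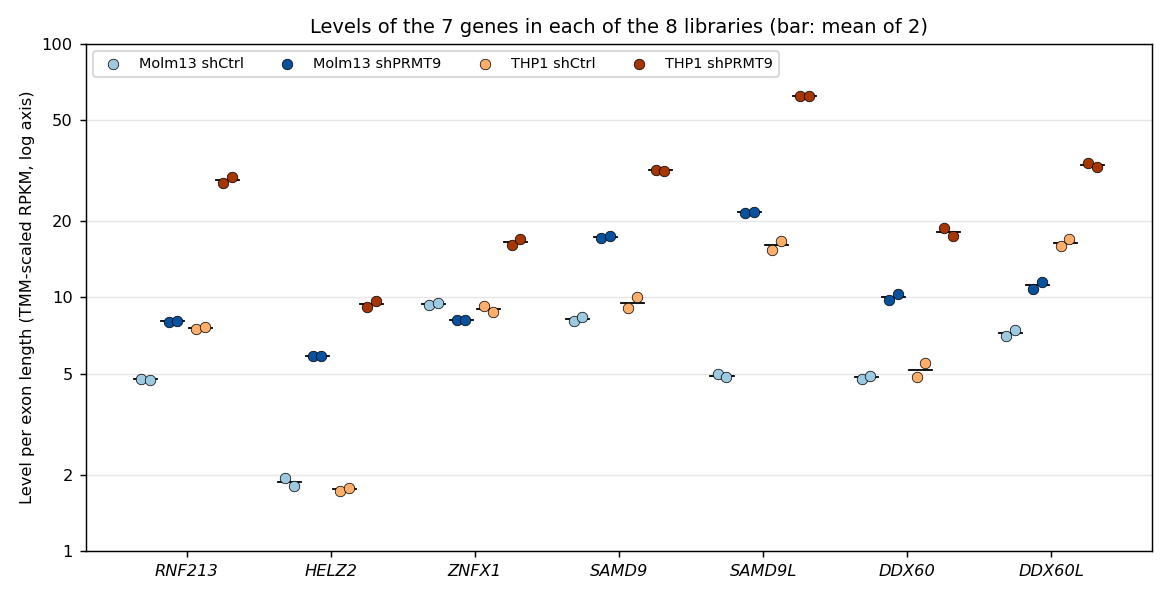
RPKM of each gene (log axis) in the 8 libraries, with 1 point per library and a bar at the mean of 2. Each gene except ZNFX1 was higher in both shPRMT9 libraries of both lines, whereas ZNFX1 was at 8.17 RPKM in Molm13 shPRMT9, below its control at 9.44.

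Each line was then tested alone by edgeR's quasi-likelihood test, and a gene was called changed if its adjusted p (FDR) was below 0.05, it differed by more than 1.5-fold and at least 1 library exceeded an RPKM of 1. By this rule, 6 genes rose in Molm13 and none fell (6 of 7, against 11.4% of the 16446 genes tested that were changed and higher). All 7 rose in THP1, against 3.82% of 16294 genes. The 6 genes that rose in both lines stand beside 2.06% of the 13476 genes tested in both. In all 14 gene and line combinations the CPM of the shCtrl and shPRMT9 libraries did not overlap, which was also the case for 81.9% of all genes in Molm13 and 66.0% in THP1, so this alone does not set the genes apart. The median log2 fold change of the 7 was 1.05 in Molm13 and 1.81 in THP1, beside 0.00 over all genes in both lines. SAMD9L, HELZ2, SAMD9 and DDX60 are in a gene signature that the study drew from these same libraries, so their direction is not independent evidence.

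SAMD9L had the largest rise of the 7 in Molm13. Its CPM were 35.5 and 34.6 in shCtrl and 154 and 155 in shPRMT9, a log2 fold change of 2.14 (SE 0.04, FDR 4.34e-36), or 4.41-fold. In THP1, 109 and 120 CPM became 446 and 445, a log2 fold change of 1.96 (SE 0.04, FDR 2.6e-25). The THP1 controls thus lay below the Molm13 KD libraries, while the THP1 KD libraries were far above both.
SAMD9, the neighboring paralog, had smaller rises, with 95% intervals of the log2 fold change that did not overlap those of SAMD9L in either line. Its CPM were 55.2 and 57.3 in Molm13 shCtrl and 118 and 119 in shPRMT9 (log2 fold change 1.08, SE 0.04, FDR 8.37e-26). In THP1, 62.1 and 68.7 CPM became 218 and 217 (log2 fold change 1.73, SE 0.04, FDR 1.07e-22).

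DDX60 and DDX60L also rose unequally, and again their 95% intervals did not overlap. CPM of DDX60 were 32.1 and 33.1 in Molm13 shCtrl and 65.7 and 69.7 in shPRMT9, and 32.8 and 37.1 in THP1 shCtrl and 127 and 118 in shPRMT9. Its log2 fold changes were 1.05 (SE 0.05, FDR 1.18e-21) and 1.81 (SE 0.05, FDR 8.75e-21). The controls of both lines overlapped, and the KD libraries of THP1 were well above those of Molm13. CPM of DDX60L were 85.8 and 90.3 in Molm13 shCtrl and 131 and 140 in shPRMT9, a log2 fold change of 0.63 (SE 0.04, FDR 1.95e-18). That is 1.54-fold, just inside the limit of 1.5, and without shCtrl replicate 1 it was 0.58 on the log2 scale and the call was lost. In THP1, 195 and 206 CPM became 411 and 399, a log2 fold change of 1.02 (SE 0.03, FDR 1.32e-19).

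RNF213, the giant ubiquitin ligase, had the most counts of the 7 in each library but a modest rise in Molm13. There it was at 136 and 135 CPM in shCtrl and 229 and 232 in shPRMT9, a log2 fold change of 0.76 (SE 0.03, FDR 3.7e-25). THP1 libraries were at 215 and 219 CPM in shCtrl and 807 and 851 in shPRMT9, a log2 fold change of 1.94 (SE 0.03, FDR 2.43e-26). RNF213 made up 29.9% and 29.3% of the counts of the 7 genes in the Molm13 controls and 27.1% and 26.9% in their KD libraries, whereas in THP1 this share was 29.8% and 29.05% in the controls and 35.5% and 36.9% upon KD. HELZ2, a helicase with a ribonuclease-like domain, was the least abundant per exon length and had the largest rise of the 7 in THP1. CPM went from 23.5 and 21.7 to 71.0 and 70.6 in Molm13 (log2 fold change 1.65, SE 0.06, FDR 1.09e-27) and from 20.8 and 21.5 to 111 and 117 in THP1 (2.43, SE 0.05, FDR 9.39e-24).

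ZNFX1 was the exception. In Molm13 it was at 87.1 and 89.2 CPM in shCtrl and at 76.1 and 76.4 in shPRMT9, a log2 fold change of −0.21 (SE 0.04, FDR 2.43e-05). Both KD libraries lay below both controls and the FDR was passed, as it was for 33.5% of genes in this direction, but at 0.865-fold the fold limit was not. In THP1, 86.6 and 81.6 CPM became 151 and 158, a rise of 0.88 on the log2 scale (SE 0.04, FDR 4.46e-16). The pattern of a lower level in Molm13 at this FDR with a call as risen in THP1 was present in 52 of 13476 genes (0.386%). Annotated genes overlap ZNFX1 on the opposite strand, DDX27 over 2.17% and ZFAS1 over 2.67% of its exon bases. The strand setting of the counting is not given in the sources used here, so reads there cannot be told apart with certainty. DDX27 had log2 fold changes of 0.09 and 0.20 and ZFAS1 of 0.27 and −0.05 in Molm13 and THP1, and neither was called changed. Ordered by log2 fold change, the 95% intervals of neighbors overlapped for SAMD9 with DDX60 and RNF213 with DDX60L in Molm13, and in THP1 for SAMD9L with RNF213, RNF213 with DDX60, DDX60 with SAMD9 and DDX60L with ZNFX1.

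**Figure D2:**
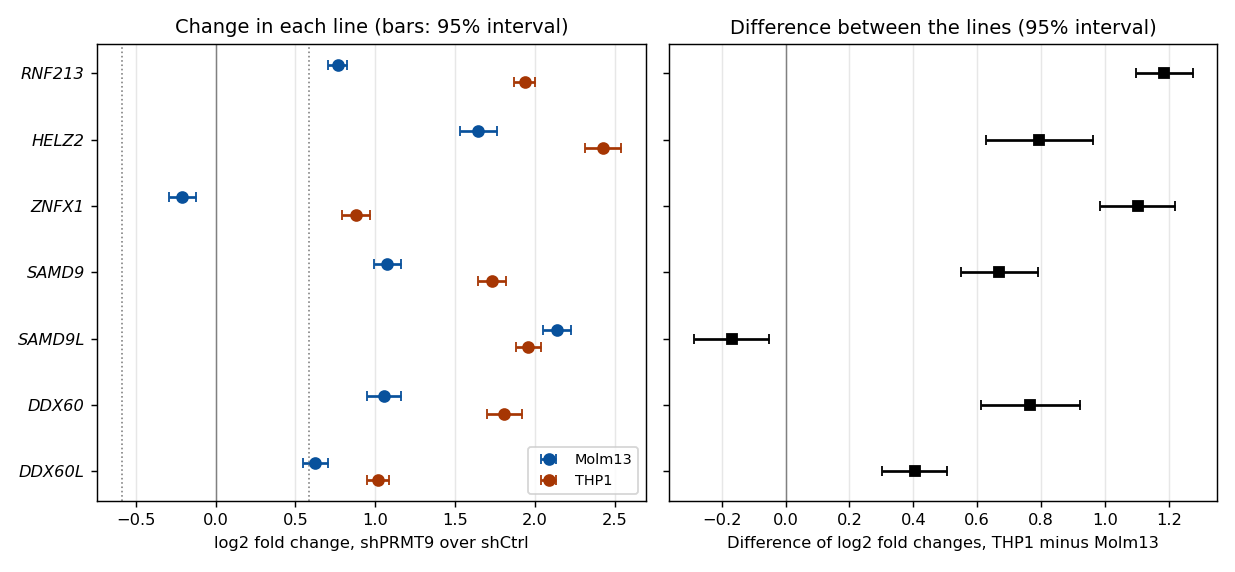
Left, log2 fold change of shPRMT9 over shCtrl per gene in each line with 95% intervals, and dotted lines at the 1.5-fold limit. Right, the difference of the log2 fold changes (THP1 minus Molm13) with its 95% interval, which is above 0 for 6 genes and below 0 for SAMD9L, at −0.17.

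Whether the changes differed between the lines was tested in a joint fit of all 8 libraries over 19288 shared genes. Line and handling cannot be told apart here, since each line was tabulated separately. All 7 genes differed at an FDR below 0.05. Of these, 6 rose more in THP1, beside 22.8% of all genes with a difference in that direction. The difference was 1.19 for RNF213 (95% interval 1.10 to 1.27), 1.10 for ZNFX1 (0.98 to 1.22), 0.79 for HELZ2 (0.63 to 0.96), 0.77 for DDX60 (0.61 to 0.92), 0.67 for SAMD9 (0.55 to 0.79) and 0.40 for DDX60L (0.30 to 0.51). Only SAMD9L went the other way among the 7, at −0.17 (−0.29 to −0.05, FDR 0.014), beside 19.4% of all genes with a negative difference. Without THP1 shCtrl replicate 2 the SAMD9L difference was −0.13 and this call was lost.

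Control levels were compared in the same fit. SAMD9L, DDX60L, RNF213 and SAMD9 were higher in THP1 shCtrl than in Molm13 shCtrl, beside 40.1% of all genes, and these were 4 of the 7. The log2 differences were 1.71 for SAMD9L (SE 0.05, FDR 2.5e-54), 1.19 for DDX60L (SE 0.04, FDR 6.93e-49), 0.68 for RNF213 (SE 0.03, FDR 1.68e-34) and 0.22 for SAMD9 (SE 0.05, FDR 1.45e-05). No difference was detected for HELZ2 (−0.09, 95% interval −0.23 to 0.05), ZNFX1 (−0.07, −0.15 to 0.02) or DDX60 (0.10, −0.02 to 0.23). Without THP1 shCtrl replicate 1, however, the DDX60 difference was 0.21 and was called. The same control libraries enter this comparison and the difference of the changes, so no relation between them is drawn.

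Within each pair, the ratio of the paralogs moved, in opposite senses. SAMD9L to SAMD9, as a ratio of RPKM, was 0.617 and 0.579 in Molm13 shCtrl and 1.25 in both shPRMT9 libraries, so SAMD9 was the higher paralog before KD and SAMD9L after it. In THP1, where SAMD9L was already the higher one, the ratio was 1.69 and 1.67 in the controls and 1.96 and 1.97 upon KD. DDX60L to DDX60 went down instead. It was 1.48 and 1.51 in Molm13 controls and 1.11 and 1.12 upon KD, and 3.297 and 3.08 in THP1 controls and 1.80 and 1.87 upon KD. With 2 libraries per group, these ratios are given without a test. Their levels rest on the exon lengths used (12156 bases for DDX60L and 6750 for DDX60), but their direction upon KD does not.

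**Figure D3:**
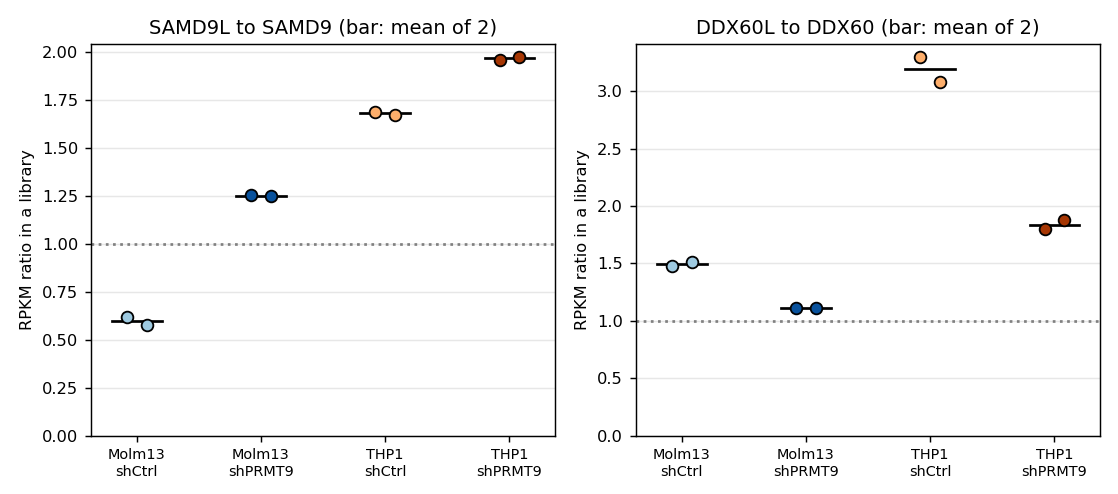
RPKM ratio of the paralogs within each library, SAMD9L to SAMD9 on the left and DDX60L to DDX60 on the right, with bars at the mean of 2 libraries and a dotted line at equal levels. Upon KD the left ratio is higher and the right ratio lower in both lines.

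Among the 7, SAMD9 and DDX60 had the most similar profiles. The root-mean-square difference of their log2 CPM, each centered on its own mean over the 8 libraries, was 0.05, and the next closest pair (HELZ2 and DDX60) was at 0.32. Neither gene was closest to its own paralog, as SAMD9 and SAMD9L were 0.66 apart and DDX60 and DDX60L 0.55. ZNFX1 and SAMD9L were the furthest apart at 1.08. The nearest genes outside the 7 were then sought among tested genes averaging 20 counts or more. For SAMD9L the 2 nearest were IFIH1 (0.13), which encodes a sensor of double-stranded RNA, and C19orf66 (0.18). ADAR (0.08), which edits double-stranded RNA, and C5orf56 (0.10) were nearest to ZNFX1. IL1RN, the interleukin-1 receptor antagonist, was nearest to both SAMD9 (0.08) and DDX60 (0.10), with the ubiquitin-like ligase HERC5 (0.12) second for DDX60. The 2 nearest genes were TAP1 (0.09) and PECAM1 (0.09) for DDX60L, CD209 (0.08) and ZC3H12A (0.14) for RNF213 and SEMA4A (0.16) and AXL (0.20) for HELZ2.

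**Figure D4:**
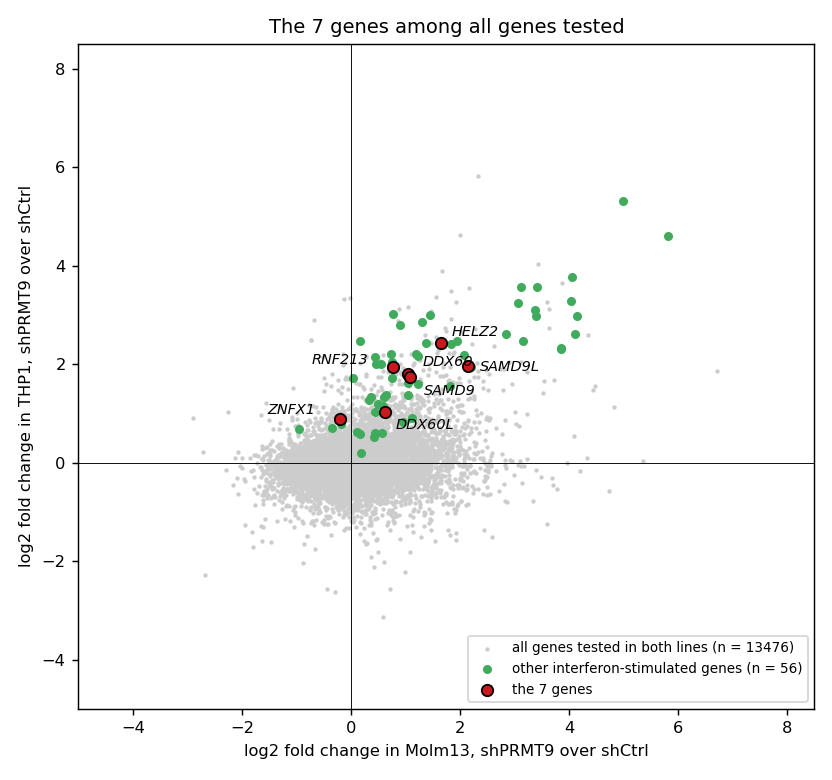
Log2 fold change (shPRMT9 over shCtrl) in Molm13 (x axis) and THP1 (y axis) for all 13476 genes tested in both lines (gray), 56 other interferon-stimulated genes (green) and the 7 genes (red). ZNFX1 is the only one of the 7 left of 0, at −0.21 in Molm13 and 0.88 in THP1.

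The 7 genes were set beside other interferon-stimulated genes. In Molm13, 36 of 56 tested genes of this list rose and 1 fell, with a median log2 fold change of 1.05, and in THP1 54 of 57 rose and none fell, with a median of 2.13. IFI44L and IFI27 were the highest in both lines. IFI44L was at 5.81 in Molm13 and 4.61 in THP1. IFI27 was at 5.32 in THP1 and at 4.98 in Molm13, where it was below the RPKM minimum. The lowest in THP1 were ZC3HAV1 (0.19) and IFITM2 (0.53), neither called. The lowest in Molm13 were PNPT1, a mitochondrial RNA exonuclease (−0.96, changed), and TRIM14 (−0.34, not past the fold limit). PNPT1, TRIM14 and ADAR (−0.18) were the 3 of 56 that shared the ZNFX1 pattern. They were lower in Molm13 at an FDR below 0.05 and risen in THP1 (0.67, 0.71 and 0.78). Of all genes tested in both lines, 0.386% had this pattern. The change differed between the lines for 41 of 57 genes of the list, with 31 higher and 10 lower in THP1. Of all genes, 22.8% had a higher and 19.4% a lower change in THP1, so the 10 lower ones are near the background.

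The chain that signals to these genes was measured in part. IFNB1, encoding interferon beta, had 0 and 1 counts in Molm13 shCtrl and 3 and 2 in shPRMT9, and 1 and 1 in THP1 shCtrl and 10 and 8 in shPRMT9, too few to be tested. Of the chain as listed, 6 of 14 tested genes rose in Molm13 and 6 of 15 in THP1, and none fell. Beside them, 11.4% of all genes rose and 11.4% fell in Molm13, and 3.82% rose and 2.39% fell in THP1. With a list this small, nothing is drawn from the lack of falls. The receptor gene IFNAR1 rose in Molm13 (0.62) but was at 0.28 in THP1, below the fold limit, and IFNAR2 (0.03 and 0.28), JAK1 (0.42 and 0.15) and TYK2 (0.18 and 0.39) were not called in either line. STAT2 (1.65 and 1.26), IRF9 (1.91 and 0.67) and IRF7 (1.95 and 1.61) rose in both.

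Structural relatives of the 7 genes were set beside them in the same way. Of the other UPF1-like helicases, MOV10, an antiviral RNA helicase, rose in both lines (0.69 and 0.94). DNA2 and ZGRF1, which act in DNA repair, fell in Molm13 (−1.26 and −0.83) and were at −0.10 and 0.04 in THP1. The remaining 5 of 8 tested in Molm13 and 8 of 9 in THP1 did not pass. No SKI2-like relative of DDX60 was called, with 5 tested in Molm13 and 6 in THP1. Among AAA+ relatives of RNF213, 4 of 17 fell in Molm13 and none rose: ATAD3A (−0.89), ATAD2 (−0.87), SPATA5 (−0.65) and ATAD1 (−0.59). None of 18 was called in THP1. Over all genes, 11.4% rose and 11.4% fell in Molm13, and 3.82% rose and 2.39% fell in THP1. With lists this small, no difference of the relatives from these shares is claimed. The list medians in Molm13 and THP1 were −0.20 and 0.04 for the UPF1-like, 0.03 and 0.08 for the SKI2-like and −0.35 and −0.09 for the AAA+ relatives. The ISRE core was in 0 of 6, 0 of 3 and 2 of 14 of their promoters.

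**Figure D5:**
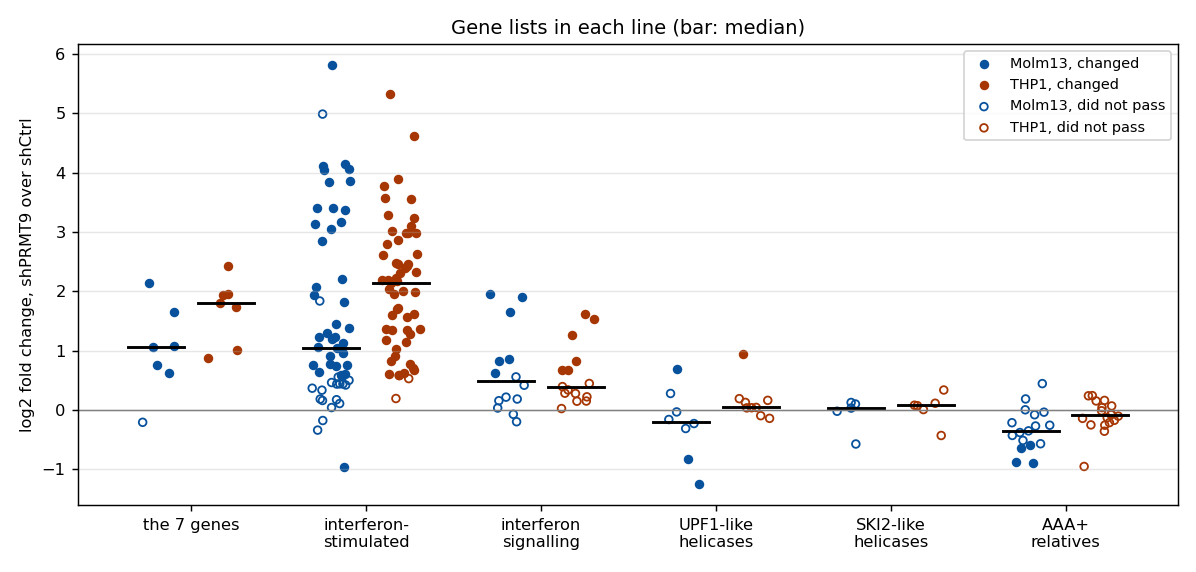
Log2 fold change of each gene of 6 lists in Molm13 (blue) and THP1 (brown). Filled points passed the FDR, fold and RPKM limits and open points did not, with bars at the medians, which are 1.05 and 1.81 for the 7 genes and near 0 or below it for the relatives.

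Genes next to the members were examined by position. Within 500 kb of a start site, 45 other tested genes were found, of which 6 rose and 4 fell in Molm13, and none rose and 1 fell in THP1. In Molm13, where 11.4% of all genes rose and 11.4% fell, these counts are near the background and say nothing particular of the neighbors. The nearest tested genes beside SAMD9 and SAMD9L were AC002454.1 (0.51 and 0.24 in Molm13 and THP1) and VPS50 (−0.08 and 0.13), neither called. For DDX60 and DDX60L they were CBR4 (−0.04 and −0.26, not called) and MSMO1, 2873132 bases away, which rose in Molm13 (0.69) and was at −0.28 in THP1. EIF4A3 (−0.32 and 0.01, not called) and ENDOV (0.85, changed, and 0.09) flanked RNF213. PTK6, with at most 31 counts in a library (2.56 and 0.90, not called), and GMEB2 (−0.22 and −0.05, not called) flanked HELZ2. STAU1 (0.23 and 0.03, not called) and SNORD12B (−0.72, changed, and −0.28) flanked ZNFX1. Genes overlapping RNF213 and DDX60L were sparse. The 4 non-coding genes over RNF213 had at most 87 counts in a library, and over DDX60L, PALLD had at most 33 and SNORA51 none. None of these was called changed, but some were not tested. These were CTD-2047H16.2, CTD-2047H16.5 and SNORA51 in both lines, and CTD-2047H16.3 and PALLD in Molm13. CTD-2047H16.4, on the strand opposite to RNF213, was lower in THP1 (−0.86, FDR 0.0028). It passed the fold limit but not the RPKM minimum.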

How the data were processed

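Per gene and library, the authors deposited raw counts of reads, 1 table per line (57992 genes for Molm13, 58174 for THP1), and the Molm13 table also gives coordinates and exon lengths in bases. Their processing notes name TopHat2 2.0.8, HTSeq 0.11.2, edgeR 3.30.3 and hg38. Annotation and strand setting are not given in the sources used here. Libraries were made from poly(A) RNA.

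From these counts, edgeR 4.0.16 in R 4.3.3 was used with TMM factors and filterByExpr. Quasi-likelihood tests, with p-values adjusted by Benjamini-Hochberg, were run in each line alone (16446 and 16294 genes) and jointly for 19288 genes. SE is the absolute log2 fold change over the square root of F. RPKM used the deposited exon lengths, with CPM where a gene had none. The scripts were tested on simulated data. Replicates differed by more than sampling noise (chi-square per gene 1.35 to 2.16). The common biological coefficient of variation was 0.0201 in Molm13 and 0.0247 in THP1.

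The 7 genes and all lists were chosen with earlier results of these data known. Besides members, the text names PRMT9, overlapping and flanking genes, the 2 most alike genes per member, called relatives, the 2 highest and 2 lowest interferon-stimulated genes per line, genes of the signalling chain and cell markers. Some genes that these rules select are not reported here. Alternatives were other normalizations, filters, limits and DESeq2 1.42.0, a replicate block, a common fit and leaving out each library. Promoters came from RefSeq and matched 6 of 7 genes.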

Additional observations from a re-analysis of the deposited data

Results flagged for a closer look

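The change upon PRMT9 KD differed between the lines for each of the 7 genes in the joint fit (edgeR's quasi-likelihood test, FDR below 0.05 over 19288 genes). Over all genes in this test, the difference was called as higher in THP1 for 22.8% and as lower for 19.4%. As THP1 minus Molm13 on the log2 scale, the difference was 1.19 for RNF213, 0.79 for HELZ2, 1.10 for ZNFX1, 0.67 for SAMD9, −0.17 for SAMD9L, 0.77 for DDX60 and 0.40 for DDX60L. ZNFX1 is the case in which the directions were opposite. Its lower level in Molm13 (0.865-fold) passed the FDR, as did 33.5% of genes in this direction, but not the 1.5-fold limit. For SAMD9L the rise in each line was about 4-fold (4.41 and 3.89), and the FDR of the difference was 0.014. Without THP1 shCtrl replicate 2 the SAMD9L difference was −0.13 and its call was lost. Line, batch of handling and table cannot be told apart in these comparisons.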

How the results depend on the processing

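The calls were recomputed with library size alone, RLE factors, DESeq2, no filter, a replicate block and a common fit, and no member changed direction under any alternative run. The number of members called was 4 in Molm13 and 6 in THP1 at a fold limit of 2, where the calls over all genes went from 3746 to 1303 and from 1012 to 399. Without the RPKM minimum, THP1 had 1544 calls. Leaving out each library in turn left 1 library in a group. For these fits, effect sizes and moved calls are given without FDR values. These fits moved the call for DDX60L in Molm13, where the log2 fold change ran from 0.58 to 0.68 over the alternatives. Calls also moved for the SAMD9L difference between lines (−0.27 to −0.13) and for the DDX60 difference between controls (0.02 to 0.21). The alternatives for interferon-stimulated genes were added after seeing the data. Deviations of libraries with the same number had correlations of −0.087 in Molm13 and −0.015 in THP1, so the numbers were not taken as pairs. With the replicate block, 6 members were called in Molm13 and 7 in THP1, beside 3713 and 1018 of all genes. For the difference between lines 7 members were called and for the controls 4, beside 7961 and 15893 of all genes. Of the interferon-stimulated genes, 37 and 54 were called in Molm13 and THP1. As ratios of raw counts, which leave out exon length, SAMD9L to SAMD9 was 1.30 in Molm13 shPRMT9 and 1.75 and 2.05 in THP1 shCtrl and shPRMT9. DDX60L to DDX60 was 2.70 and 2.00 in Molm13 and 5.74 and 3.31 in THP1. Each count ratio is the RPKM ratio times a constant set by exon lengths. Its direction upon KD therefore could not differ and tests nothing. RPKM from library totals alone moved beyond 1 SD for SAMD9 (31.4) and SAMD9L (61.8) in THP1 shPRMT9. With one more A required at the 3′ end of the ISRE core, 3 members and 3.57% of all promoters matched. With 2 libraries per group, outliers cannot be identified.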
